A study of Homo sapiens with 12 samples.

Results

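The genes described here are 10 members of the BCL2 family that were taken as a group apart from the p53-responsive ones: the anti-apoptotic members BCL2, BCL2L1, BCL2L2 and MCL1, the pore-forming effector BAK1, and the BH3-only members BID, BAD, BIK, BMF and BCL2L11. They were chosen by name, as every probe set whose annotated symbol was one of the 10, out of 19775 named genes on the array. Together they had 32 of the array's 54675 probe sets, of which 24 passed the filter on low values, and 9 of the 10 genes were tested. The cells were HK-2, a human line immortalized from epithelium of the renal proximal tubule. They were kept in a medium with epidermal growth factor, hydrocortisone, insulin, transferrin and selenite, and exposed near confluence. The 4 groups were Kbr at low dose for 24 h, its control at 24 h, Kbr at low dose for 48 h and its control at 48 h, with 3 biological replicates each. Control cells received vehicle. All samples come from this 1 line, and the sources used here do not state the concentration of Kbr or what its name stands for.

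The BCL2 family decides whether the outer mitochondrial membrane keeps or loses its integrity when a cell is stressed. Effectors such as BAK1 and BAX form the pores that release cytochrome c, anti-apoptotic members hold the effectors and the BH3-only proteins in check, and BH3-only proteins carry stress signals to both. Many members are set by protein stability, phosphorylation or cleavage as well as by transcription, which arrays do not measure. In the proximal tubule, loss of cells by this route is a known form of toxic injury.

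Values are log2 expression values as deposited, so that a difference of 1 is a doubling. Precision is limited by the number of arrays. Array medians lay between 2.91 and 2.99, within a group Pearson's r between arrays was 0.982 to 0.993 over tested genes, and no arrays were identical. In bulk RNA, fewer cells of a kind and less RNA per cell cannot be told apart. Of 6 epithelial marker genes 6 were tested, whereas 0 of 8 proximal tubule transport and brush border markers rose above a log2 value of 4, so the epithelial part of the labelled cell type was seen and its differentiated tubule markers were not. Of the epithelial markers, 3 fell and 0 rose at 48 h (adjusted p under 0.05 with limma), beside 20.8% of all tested genes that fell and 22.0% that rose. With the replicate number as a block in the fit 4 fell and 2 rose, beside 57.5% of all tested genes that did either. Endothelial, leukocyte and other nephron markers that were annotated stayed out of the test, and of 4 fibroblast markers only COL1A1 was tested, with a log2 change of -2.06 at 48 h, while the other 3 had group means of at most 3.02. RNA integrity was read from the ACTB control probe sets, as the 3′ end minus the 5′ end. For replicates 1, 2 and 3 it was 0.838, 0.975 and 0.748 in Kbr cells and 0.717, 0.992 and 0.674 in controls at 24 h. At 48 h it was 0.875, 1.07 and 0.779 in Kbr cells and 0.709, 1.04 and 0.697 in controls. Kbr cells were higher in every replicate pair at 48 h, and at 24 h in the pairs of replicates 1 and 3 only. The part of these in the results below was not tested.

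At 48 h, 2 of the 9 tested members passed the test, and they were both anti-apoptotic. MCL1 was 1.76-fold lower and BCL2L2 1.37-fold higher in Kbr cells, each by the brightest probe set of the gene. The test was limma across 10665 genes, with Benjamini-Hochberg adjustment and a threshold of 0.05. In a separate fit of probe sets, the other tested probe sets of MCL1 did not pass. Of all tested genes 42.8% passed at this time, 22.0% higher and 20.8% lower. At 24 h, 0 of 9 members passed in this fit without a replicate block, beside 5.74% of all tested genes. An unadjusted p under 0.05 was found for 2 members and for 2532 of 10665 tested genes. With the replicate number as a block, MCL1 and BIK passed at 24 h, both lower, beside 24.4% of all tested genes. At 48 h the block added BCL2, which was lower, beside 57.5%. The 3 Kbr arrays lay apart from the 3 control arrays in 2 members at 24 h and 2 at 48 h, against 31.8% and 50.9% of all tested genes.

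**Figure D1:**
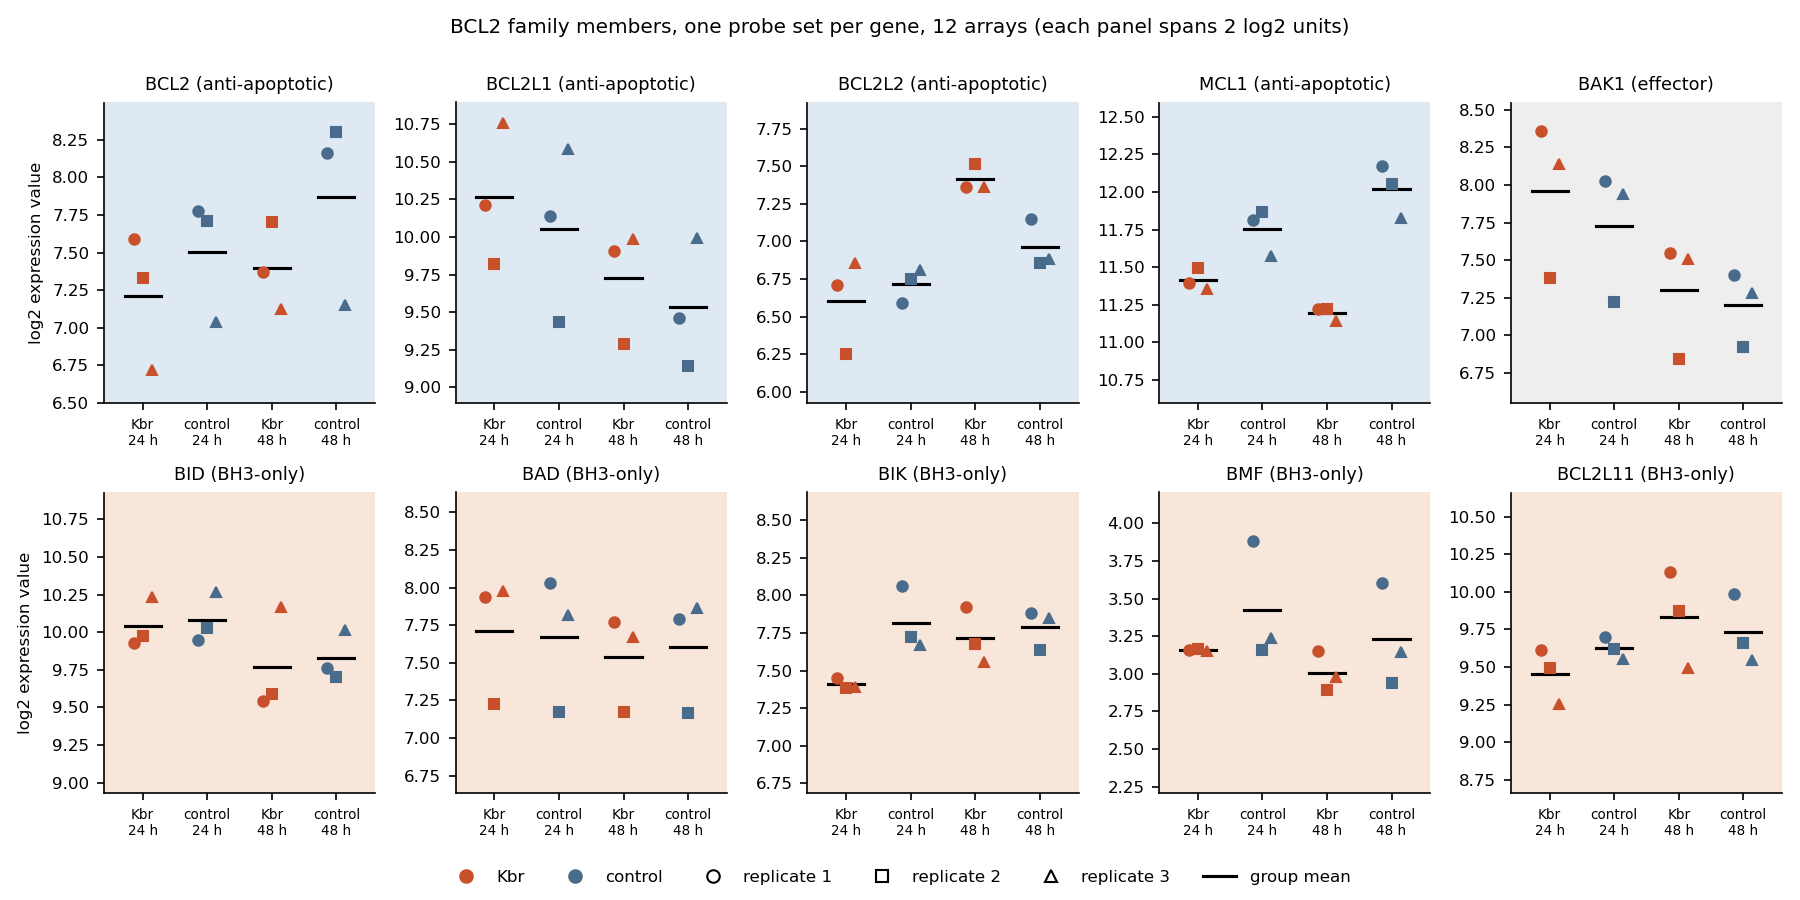
Log2 expression values (y axis) of the 10 members in the 12 arrays, 1 probe set per gene, for Kbr and control cells at 24 and 48 h (x axis); points are arrays, with a symbol for each replicate number, and bars are group means. MCL1 values in Kbr cells lie below those of controls of the same time at 24 and 48 h, BCL2L2 values lie above at 48 h, and for most other members the spread within a group is wider than the distance between the groups.

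MCL1, a short-lived anti-apoptotic protein that holds BAK1 and BCL2L11, had the smallest p of the members. Its probe set 200797_s_at had log2 values of 11.22, 11.23 and 11.14 in Kbr cells at 48 h, against 12.17, 12.05 and 11.83 in controls. All Kbr values lay below all control values, and Kbr minus control was -0.95, -0.83 and -0.68 in the pairs of replicates 1, 2 and 3. The fitted log2 change was -0.82 (SE 0.11, adjusted p = 0.000311). It passed in all 21 alternative settings, with adjusted p between 4.89e-05 and 0.00853. All of them but the averaging of probe sets refit this same probe set, so they do not bear on the others. Over the 5 tested MCL1 probe sets the median log2 change at 48 h was -0.19.

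At 24 h the same probe set had 11.39, 11.49 and 11.35 in Kbr cells and 11.81, 11.86 and 11.58 in controls. The groups did not overlap at this time either. A log2 change of -0.34 (SE 0.11) did not pass (adjusted p = 0.0946), although it did with the replicate number as a block (adjusted p = 0.0144). The change at 48 h minus that at 24 h was -0.48 (SE 0.16, adjusted p = 0.186), and with the block this difference passed as well (adjusted p = 0.0356). In controls the 48 h value minus the 24 h value was 0.27 (adjusted p = 0.198, with the block 0.0362), and in Kbr cells it was -0.22 (adjusted p = 0.226).

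The other probe sets of MCL1 did not show a change of that size. Affymetrix marks a probe set with _s_at where its probes match several transcripts, with _x_at where some may bind unrelated ones and with _a_at where it matches transcripts of 1 gene. At 48 h the log2 change was -0.10 (95% interval -0.30 to 0.10) for 200798_x_at, -0.19 (-0.46 to 0.09) for 200796_s_at, 0.13 (-0.18 to 0.44) for 214056_at and -0.34 (-0.65 to -0.03) for 214057_at, and none of these passed. For 214057_at the adjusted p was 0.0763, and 0.0275 without the control array of replicate 2 at 48 h. Measured within each array, the distance of each of these 4 probe sets to 200797_s_at did not overlap between Kbr and control cells at 48 h. All 4 distances share 200797_s_at and are not separate checks, and they were not tested. At 24 h all 5 tested probe sets had negative log2 changes, from -0.34 to -0.10. The sixth probe set, 227175_at, stayed below 4 on all arrays.

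BCL2L2, the anti-apoptotic protein also called BCL-w, rose at 48 h. Its probe set 209311_at had 7.36, 7.51 and 7.36 in Kbr cells, against 7.15, 6.86 and 6.88 in controls. The Kbr values lay above all control values, and Kbr cells were higher in 3 of 3 replicate pairs. The fitted difference was a log2 change of 0.45 (SE 0.15, adjusted p = 0.0325). This call was lost without a filter and without the Kbr array of replicate 1, 2 or 3 or the control array of replicate 2 or 3 at 48 h, with adjusted p up to 0.0992.

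At 24 h the BCL2L2 values were 6.71, 6.25 and 6.86 in Kbr cells and 6.59, 6.75 and 6.81 in controls, which overlapped, with a log2 change of -0.11 (95% interval -0.44 to 0.22). The difference between the effects at 48 h and 24 h was 0.56 (SE 0.21) and did not pass (adjusted p = 0.235). The second probe set, 1555140_a_at, stayed below 4 on all arrays, so that BCL2L2 rests on a single probe set. A further probe set annotated to BCL2L2, PABPN1 and their readthrough gene together was left out of the tests.

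BCL2, the founding anti-apoptotic member, was below its controls in every replicate pair but varied more than it differed. Its brighter probe set 203685_at had 7.37, 7.70 and 7.13 in Kbr cells at 48 h, against 8.16, 8.30 and 7.15 in controls. The control of replicate 3 lay within the range of the Kbr cells, so the groups overlapped. The difference was -0.47 (SE 0.33, adjusted p = 0.272), which passed with the replicate block (adjusted p = 0.0225) and without the control array of replicate 3 at 48 h. At 24 h the values were 7.59, 7.33 and 6.72 in Kbr cells and 7.77, 7.71 and 7.04 in controls, with a log2 change of -0.29 (SE 0.33). The probe set 207004_at, which is annotated to another BCL2 transcript accession, had changes of 0.14 at 24 h and 0.07 at 48 h, and neither passed. The remaining 2 probe sets stayed below 4 on all arrays.

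BCL2L1, whose main product BCL-xL guards BAX and BAK1, did not pass at either time. Its brightest probe set 206665_s_at had 9.90, 9.29 and 9.99 in Kbr cells and 9.46, 9.14 and 9.99 in controls at 48 h. At 24 h it had 10.22, 9.82 and 10.76 in Kbr cells and 10.14, 9.43 and 10.58 in controls. The groups overlapped, with the array of replicate 2 lowest in each. Kbr cells differed by a log2 value of 0.19 (95% interval -0.55 to 0.94) at 48 h and 0.21 (-0.53 to 0.96) at 24 h. With the replicate block the SE was 0.108 at each time, smaller than without it. Neither change passed with the block (adjusted p = 0.153 at 48 h and 0.184 at 24 h). The probe sets 215037_s_at and 212312_at gave 0.23 and 0.26 at 48 h and 0.04 and 0.02 at 24 h, and 231228_at passed a value of 4 on 1 array only. Over the 4 anti-apoptotic members, the median log2 change was -0.14 at 48 h and -0.20 at 24 h, beside -0.0038 and -0.016 over all tested genes.

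BAK1, the effector of the group, had a single probe set, 203728_at. Its log2 values at 48 h were 7.55, 6.84 and 7.51 in Kbr cells and 7.40, 6.92 and 7.28 in controls, and at 24 h 8.36, 7.38 and 8.14 in Kbr cells and 8.03, 7.22 and 7.94 in controls. The groups overlapped at both times. Their log2 difference was 0.10 (95% interval -0.56 to 0.75) at 48 h and 0.23 (-0.42 to 0.89) at 24 h. These intervals are from the fit without the replicate block. With the block the SE was 0.096 at each time, and neither change passed (adjusted p = 0.418 at 48 h and 0.108 at 24 h).

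BCL2L11 encodes BIM, a BH3-only protein that binds all the anti-apoptotic members and can activate the effectors. Its probe sets went apart in the test. The brightest, 225606_at, which stands for the gene, had 10.13, 9.87 and 9.50 in Kbr cells at 48 h, against 9.99, 9.66 and 9.55 in controls, with a log2 change of 0.10 (SE 0.17, adjusted p = 0.652). Of the 7 probe sets 6 passed the filter, but 208536_s_at did so only through Kbr cells at 48 h, with 2 further arrays over 4, and it is given without a test. Of the other 5, 3 rose at 48 h in the fit across 22368 probe sets, of which 37.1% passed and 20.1% rose.

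The probe set 1558143_a_at had 9.67, 9.46 and 8.96 in Kbr cells at 48 h and 8.31, 8.65 and 8.68 in controls, a log2 change of 0.82 (SE 0.20, adjusted p = 0.00883). The probe set 1553096_s_at had 8.10, 7.82 and 8.17 in Kbr cells and 7.34, 7.34 and 7.67 in controls, a change of 0.58 (SE 0.13, adjusted p = 0.00669). The probe set 222343_at had 7.04, 6.35 and 6.28 in Kbr cells and 5.18, 5.66 and 5.53 in controls, a change of 1.10 (SE 0.26, adjusted p = 0.00769). In these 3 probe sets the groups did not overlap, as in 46.8% of all tested probe sets, and Kbr cells were higher in 3 of 3 replicate pairs. The untested 208536_s_at had 5.13, 4.20 and 4.41 in Kbr cells and 3.37, 3.27 and 3.34 in controls. Its controls lay under the value of 4, where the background correction draws values to a floor, so no size of change is given.

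The 3 calls held in the 20 alternatives that could be run for them. With a floor of 6, however, 222343_at reached the filter only through Kbr cells at 48 h, so that setting does not bear on its call. The probe set 1555372_at had 6.91, 7.56 and 6.11 in Kbr cells and 6.34, 6.63 and 5.40 in controls. Kbr cells were higher in 3 of 3 pairs although the groups overlapped. Its change was 0.73 (SE 0.41, adjusted p = 0.180, with the replicate block 0.0159). Averaging the probe sets of BCL2L11 takes in 208536_s_at and the probe set under the filter, so its result at 48 h is not read as a call. Measured within each array, the distance to 225606_at did not overlap between the groups at 48 h for 1558143_a_at and 222343_at. It did overlap for 1553096_s_at and 1555372_at. These distances share 225606_at and were not tested. The annotated source sequences differ between the probe sets, and where each lies in the transcript was not analysed here.

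At 24 h, 0 of these 5 BCL2L11 probe sets passed with limma and 0 had an unadjusted p under 0.05, with log2 changes between -0.17 and 0.26. Over the whole array 4522 of 22368 tested probe sets had such a p. The change at 48 h minus that at 24 h was 1.09 for 222343_at, 0.91 for 1555372_at, 0.63 for 1558143_a_at and 0.32 for 1553096_s_at. None of these differences passed, so an effect that grew between the times was not established. The seventh probe set, 1553088_a_at, stayed below 4 on all arrays.

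**Figure D2:**
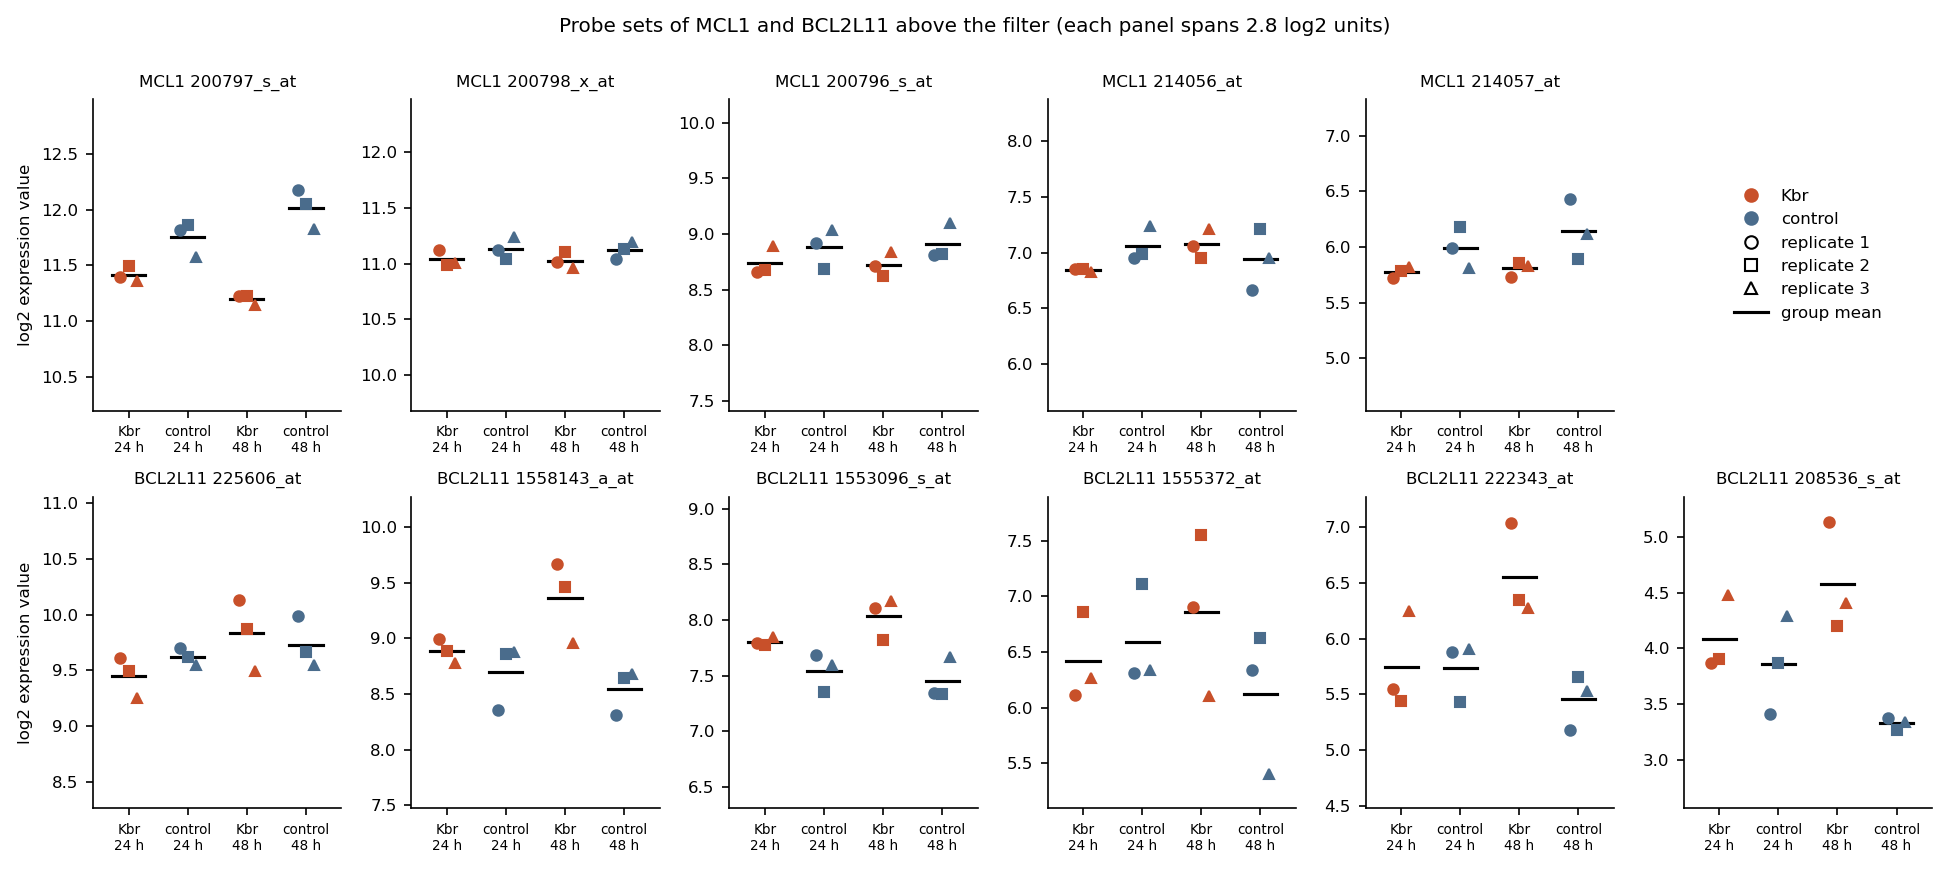
Log2 expression values (y axis) of the 5 MCL1 and 6 BCL2L11 probe sets above the filter, in Kbr and control cells at 24 and 48 h (x axis); points are arrays and bars are group means. MCL1 200797_s_at separates the groups at 48 h more widely than the other MCL1 probe sets, and the Kbr values of BCL2L11 1558143_a_at, 1553096_s_at and 222343_at lie above all controls at 48 h, while those of 225606_at and 1555372_at overlap them; 208536_s_at is drawn without a test.

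Transcription of BCL2L11 is known to respond to FOXO factors when growth factors are withdrawn and to CHOP (DDIT3) with C/EBP partners in endoplasmic reticulum stress. Its promoter is therefore shown, as the 250 bases before the RefSeq start on the plus strand (GRCh38.p14, chr2:111120664-111120913), with matches to the motifs searched in capitals.
BCL2L11: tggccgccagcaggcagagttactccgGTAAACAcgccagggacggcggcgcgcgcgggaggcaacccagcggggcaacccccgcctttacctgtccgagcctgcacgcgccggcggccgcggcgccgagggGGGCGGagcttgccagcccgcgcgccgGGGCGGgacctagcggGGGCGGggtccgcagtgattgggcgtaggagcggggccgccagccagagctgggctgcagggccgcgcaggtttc
Both strands were searched. The GC box GGGCGG matched 3 times, ending 113, 86 and 70 bases before the start, and 42.6% of 35116 promoters of the same length hold it. The FOXO motif GTAAACA matched once, ending 217 bases before the start, and 2.98% of those promoters hold it. The composite motif of ATF4 and C/EBP, TGATGNAA, had 0 matches here and is in 3.14% of promoters, and the NRF2 motif TGACNNNGC had 0 and is in 10.9%. Motifs did not overlap one another. In all, 7 of the 10 members had a promoter entry.

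BIK, a BH3-only protein of the endoplasmic reticulum, had the lowest p of the BH3-only members at 24 h. Its probe set 205780_at had 7.45, 7.38 and 7.39 in Kbr cells, against 8.06, 7.72 and 7.67 in controls. All Kbr values lay below all controls. The change of -0.41 (SE 0.13) did not pass (adjusted p = 0.0850), although it did with the replicate block (adjusted p = 0.0136) and with array weights. At 48 h the values were 7.92, 7.67 and 7.56 in Kbr cells and 7.88, 7.63 and 7.85 in controls, with a change of -0.07 (95% interval -0.36 to 0.21). The difference between the times was 0.34 (SE 0.18, adjusted p = 0.392).

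BID, which links death receptors to mitochondria once caspase-8 has cut it, was measured by 3 probe sets. The brightest, 211725_s_at, had 9.54, 9.59 and 10.17 in Kbr cells and 9.76, 9.70 and 10.01 in controls at 48 h. These gave a change of -0.06 (95% interval -0.44 to 0.32) at 48 h and -0.04 (-0.42 to 0.34) at 24 h. With the replicate block the SE was 0.086 at each time (adjusted p = 0.576 at 48 h and 0.792 at 24 h). The other two gave -0.10 and -0.18 at 48 h, and none of the 3 passed at either time.

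BAD, which phosphorylation by survival kinases keeps bound to 14-3-3 proteins, had 7.77, 7.18 and 7.67 in Kbr cells and 7.79, 7.17 and 7.86 in controls at 48 h in its probe set 209364_at. Its change was -0.07 (95% interval -0.70 to 0.56) at 48 h and 0.04 (-0.59 to 0.67) at 24 h, and 1861_at gave 0.05 and 0.16. With the replicate block the SE of 209364_at was 0.079 at each time, and neither change passed (adjusted p = 0.481 at 48 h and 0.756 at 24 h). The array of replicate 2 was the lowest of its group in all 4 groups, and the differences between Kbr and control were small beside that spread. BMF, a BH3-only protein linked to the cytoskeleton, was not tested, since its only probe set 226530_at did not reach 4 on any array. Its values were 2.89 to 3.15 in Kbr cells and 2.94 to 3.61 in controls at 48 h, and 3.15 to 3.16 in Kbr cells and 3.16 to 3.88 in controls at 24 h, where this processing gives no usable difference.

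Counted by probe set without 208536_s_at, 5 of 23 passed at 48 h, with 4 higher and 1 lower, and 6 had groups that did not overlap. Over all 22368 tested probe sets 37.1% passed, 20.1% higher and 16.9% lower, and 46.8% had groups that did not overlap. The 11 anti-apoptotic probe sets held 1 higher and 1 lower call and had a median log2 change of 0.07. The 11 BH3-only probe sets held 3 higher calls, all of BCL2L11, and had a median of 0.05, and the 1 BAK1 probe set did not pass. Probe sets of 1 gene share its transcripts and are not replicates. At 24 h, 0 of 23 passed without the replicate block and 4 had groups that did not overlap, against 3.52% and 28.3% of all tested probe sets. An unadjusted p under 0.05 was found for 2 of them and for 4522 of 22368 tested probe sets. With the block, MCL1 200797_s_at and BIK 205780_at passed at 24 h, both lower, beside 18.2% of all tested probe sets.

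**Figure D3:**
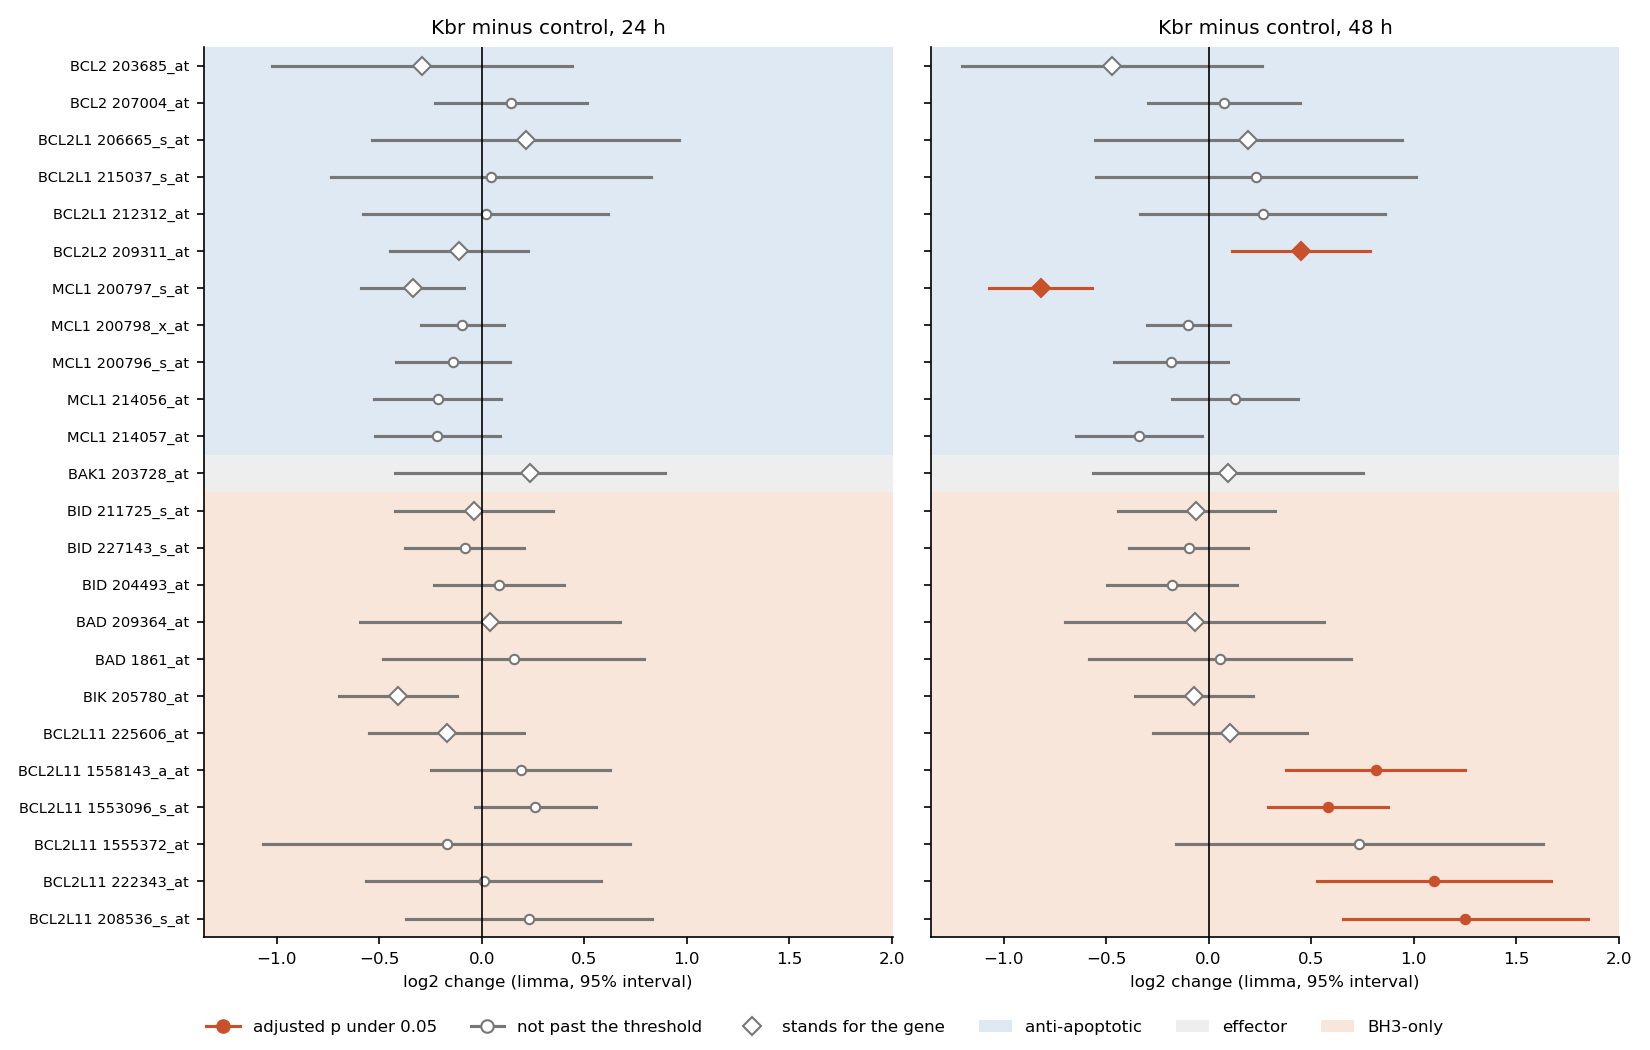
Log2 change of Kbr minus control (x axis) with its 95% limma interval for the 24 member probe sets above the filter (y axis), at 24 h and at 48 h. Filled symbols passed the adjusted threshold, diamonds are the probe sets that stand for a gene, and shading marks the role. At 24 h no symbol is filled. At 48 h MCL1 200797_s_at is filled on the lower side, and BCL2L2 and 3 BCL2L11 probe sets on the higher side. The symbol of BCL2L11 208536_s_at is filled too. It reached the filter only through Kbr cells at 48 h, so its symbol and interval are not read as a call or a size of change.

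The change of the Kbr effect between the times was also tested for every member. With limma 0 of 9 members passed, beside 0.141% of all tested genes. An unadjusted p under 0.05 was found for 2 members (MCL1 and BCL2L2) and for 1715 of 10665 tested genes. By probe set, without 208536_s_at, 0 of 23 passed with limma, beside 0.0849% of all tested probe sets. An unadjusted p under 0.05 was found for 200797_s_at, 209311_at, 1558143_a_at and 222343_at, and for 3196 of 22368 tested probe sets. With the replicate block 1 member passed, MCL1, beside 7.36% of tested genes. By probe set its 200797_s_at passed with the block, beside 4.41% of tested probe sets.

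Changes between 24 and 48 h were tested within each treatment. In Kbr cells at 48 h against 24 h, BCL2L2 rose by a log2 value of 0.81 (SE 0.15, adjusted p = 0.0110) and was the only member of 9 to pass, where 10.6% of all tested genes passed and 5.60% did so on the higher side. That call was lost in a fit of only the groups compared and without the Kbr array of replicate 2 at 48 h (adjusted p up to 0.0646). In controls at 48 h against 24 h, 0 of 9 members passed with limma, beside 3.29% of tested genes. An unadjusted p under 0.05 was found for 1 member and for 2287 of 10665 tested genes. With the replicate block the counts were 6 of 9 in Kbr cells and 3 of 9 in controls, beside 30.7% and 22.5% of tested genes. BCL2L1 had time changes of -0.54 in Kbr cells and -0.52 in controls (adjusted p with the block 0.00733 and 0.0107), and BAK1 of -0.66 and -0.52 (0.00201 and 0.00645). Both genes were thus lower at 48 h than at 24 h in cells with and without Kbr by the blocked fit. The other members that passed with the block were BID with -0.28, BIK with 0.31 and BCL2L11 with 0.38 in Kbr cells, and MCL1 in controls.

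Several members held the same order of replicate numbers across the groups. The array of replicate 2 was the lowest of its group in all 4 groups for BCL2L1, BAK1 and BAD, and that of replicate 3 was the lowest in all 4 for BCL2, MCL1 and BCL2L11. Such a number was found for 6 of 9 members and for 29.3% of all tested genes. A number that was the highest in all 4 groups was found for 5 of 9 members and 24.4% of genes. The ACTB 3′ to 5′ difference was also highest in replicate 2 in all 4 groups, and its part in these values was not tested.

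**Figure D4:**
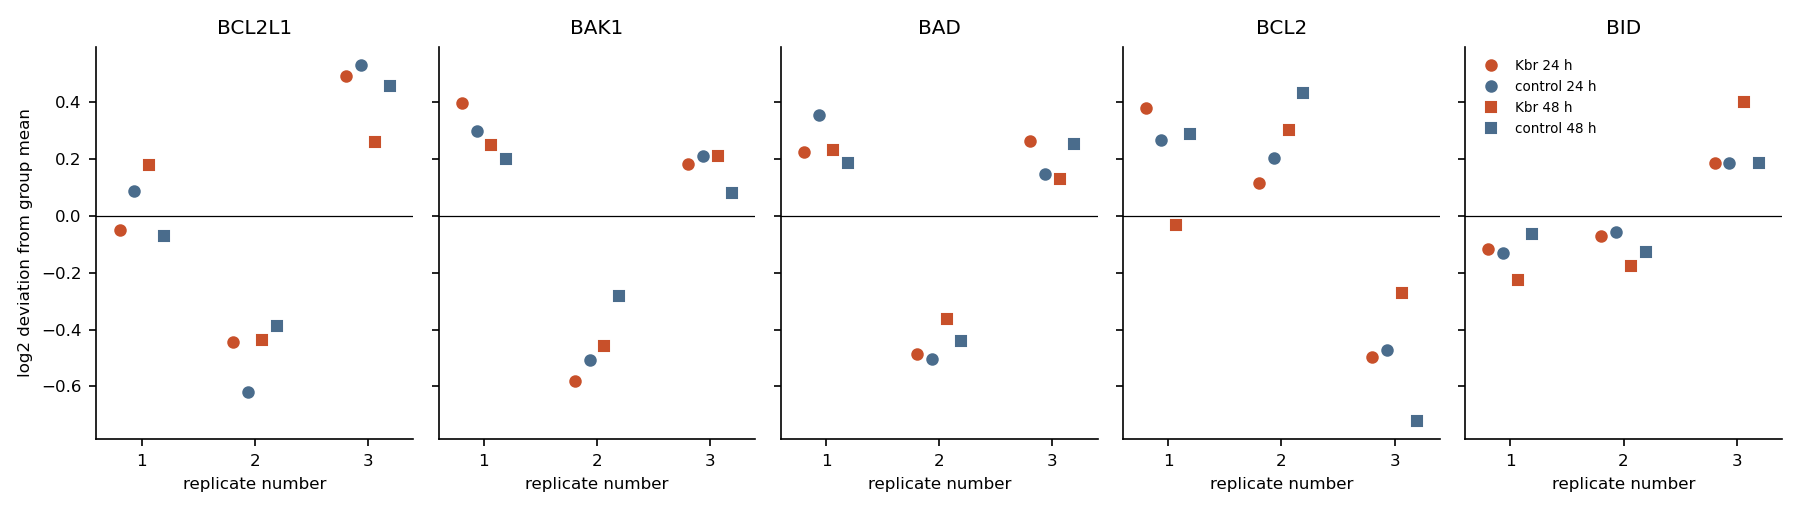
Deviation of each array from its group mean in log2 units (y axis) by replicate number (x axis) for BCL2L1, BAK1, BAD, BCL2 and BID in the 4 groups. Replicate 2 lies lowest in all 4 groups for BCL2L1, BAK1 and BAD, replicate 3 lies lowest for BCL2 and highest for BID.

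Among all tested genes, those whose log2 values ran most like MCL1 over the 12 arrays were CCDC198 (Pearson's r = 0.988), CTPS2 (0.985) and ALAD (0.984). Those most like BCL2L2 were CPEB4 (0.873), ZNF77 (0.872) and ZNF558 (0.872). The arrays share the treatment, the time and the replicate number, so these are descriptions of a common pattern. Between members, r over the 12 arrays was highest for BCL2L1 with BAK1 (0.860) and lowest for BID with BCL2L11 (-0.844).

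The rest of the family and its partners gave the setting of these values. PMAIP1, the BH3-only protein NOXA that targets MCL1, had a mean log2 value of 11.73 ± 0.33 in Kbr cells and 9.77 ± 0.26 in controls at 48 h (SD, n = 3 each). It rose by 1.96 (SE 0.28, adjusted p = 0.000444). At 24 h it was higher by 1.10 (adjusted p = 0.0483), a call kept in 10 of 21 settings and lost without any one of 9 of the 12 arrays, which were all but the Kbr arrays of replicates 1 and 3 at 48 h and the control array of replicate 3 at 24 h. BAX, the effector beside BAK1, fell by 0.57 to 8.07 ± 0.10 in Kbr cells, against 8.64 ± 0.27 in controls at 48 h (adjusted p = 0.00453), and its change at 24 h was -0.17 (adjusted p = 0.462). BNIP3L, a mitophagy receptor, fell by 0.57 (adjusted p = 0.00541). BCL2L13, a mitochondrial family member, rose by 0.33 (adjusted p = 0.0198), which was lost with only the groups compared, with the mean of the probe sets, and at 48 h without the Kbr array of replicate 1 or the control array of replicate 1 or 2. In all, 7 of 13 further family members were tested, of which 2 rose and 2 fell at 48 h, with a median log2 change of -0.016, beside 22.0% of all tested genes that rose and 20.8% that fell. BBC3, which encodes PUMA, was not analysed here.

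Downstream, among 11 tested genes of the apoptosome, caspases and their adaptors, 2 rose and 1 fell at 48 h, beside the 42.8% of all tested genes that passed, and the median log2 change was 0.19. With the replicate block 4 rose and 1 fell, beside 57.5% of all tested genes. CYCS, the cytochrome c that BAK1 pores release, rose by 0.39 (adjusted p = 0.00469), a call lost with the mean of the probe sets (adjusted p = 0.267). CASP10, a death receptor caspase, fell by 0.90 (adjusted p = 0.00291). CFLAR, an inhibitor of caspase-8, had a change of 0.39 with adjusted p = 0.0489, and with the mean of its probe sets it was -0.18 and did not pass. Its call was kept in 9 of 21 settings and without 3 of the 12 arrays, the Kbr arrays of replicates 1 and 3 at 24 h and the control array of replicate 3 at 48 h. CASP9, the apoptosome's initiator, had a change of 0.32 (adjusted p = 0.0635, with the block 0.0321), CASP8 of 0.24 (0.101, with the block 0.0141) and DFFB, the apoptotic nuclease, of 0.44 (0.244, with the block 0.110).

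Of 6 tested inhibitor of apoptosis proteins and antagonists, 1 rose and 1 fell at 48 h, beside 42.8% of all tested genes that passed, with a median of -0.12. With the block 1 rose and 3 fell, beside 57.5%. BIRC5, survivin, which also serves mitosis, rose by 0.75 (adjusted p = 0.00669), and HTRA2, a mitochondrial protease, fell by 0.48 (adjusted p = 0.00760). Changes that did not pass were -0.24 for BIRC2 and -0.21 for BIRC6, which passed with the block (adjusted p = 0.0305 and 0.0343), and 0.09 for DIABLO, which did not. Of 8 tested mitochondrial membrane partners 2 rose and 0 fell at 48 h, again beside 42.8%, with a median of 0.06. PPIF, cyclophilin D of the permeability pore, rose by 0.92 (adjusted p = 0.00469), and VDAC2, a channel that holds BAK1 at the membrane, rose by 0.37 (adjusted p = 0.00622). TSPO, an outer membrane protein that binds cholesterol, had a change of -0.53, which did not pass (adjusted p = 0.0552) but did with the block (adjusted p = 0.000216) and in 7 of the 21 settings in all. SLC25A4 had a change of -0.19 and VDAC3 of -0.0017, and neither passed with or without the block.

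Genes that control the turnover or the release of MCL1 and BH3-only proteins included 12 that were tested, of which 2 rose and 1 fell at 48 h, beside 42.8% of all tested genes that passed, with a median of 0.07. With the block 3 rose and 2 fell, beside 57.5%. DYNLL2, the dynein light chain that holds BMF, rose by 0.60 (adjusted p = 0.00116), and YWHAG, a 14-3-3 protein of the kind that holds BAD, rose by 0.45 (adjusted p = 0.00269). BTRC, part of a ubiquitin ligase that marks MCL1 and BCL2L11, had a change of -0.30 (adjusted p = 0.0290), but the mean of its probe sets gave 0.28 (adjusted p = 0.0494). Its call was also lost with an intensity trend, and at 48 h without the Kbr array of replicate 1 or 2 or the control array of replicate 1 or 2. The deubiquitinase USP9X had a change of -0.20 (adjusted p = 0.181, with the block 0.0147) and DYNLL1 of 0.09 (adjusted p = 0.463).

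Of 7 tested transcriptional regulators of BH3-only genes, 4 rose and 0 fell at 48 h, beside 22.0% of all tested genes that rose and 20.8% that fell, with a median of 0.62. DDIT3, the stress factor CHOP, had 12.48 ± 1.30 in Kbr cells and 9.64 ± 1.10 in controls (SD, n = 3 each) and rose by 2.84 (SE 0.60, adjusted p = 0.00362). TRIB3, a pseudokinase induced by CHOP, rose by 1.20 (adjusted p = 0.00203), CEBPB, a partner of CHOP, by 1.00 (adjusted p = 0.00283) and ATF4, which acts upstream of CHOP, by 0.62 (adjusted p = 0.000804). FOXO3 had a change of -0.20 (adjusted p = 0.322, with the block 0.0437) and E2F1 of 0.03 (adjusted p = 0.909), and FOXO1 did not reach 4 on any array. At 24 h ATF4 was the only one of the 7 to pass, with a change of 0.40 (adjusted p = 0.0472), and FOXO3 with a change of -0.31 passed there with the block (adjusted p = 0.0177). The call of ATF4 at 24 h was kept in 10 of 21 settings and lost without any 1 of 8 arrays. These were all 6 Kbr arrays but that of replicate 3 at 48 h, and the control arrays of replicates 1 and 2 at 24 h and of replicate 2 at 48 h. These lists were chosen with earlier results of these data known, and their counts describe the libraries only.

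**Figure D5:**
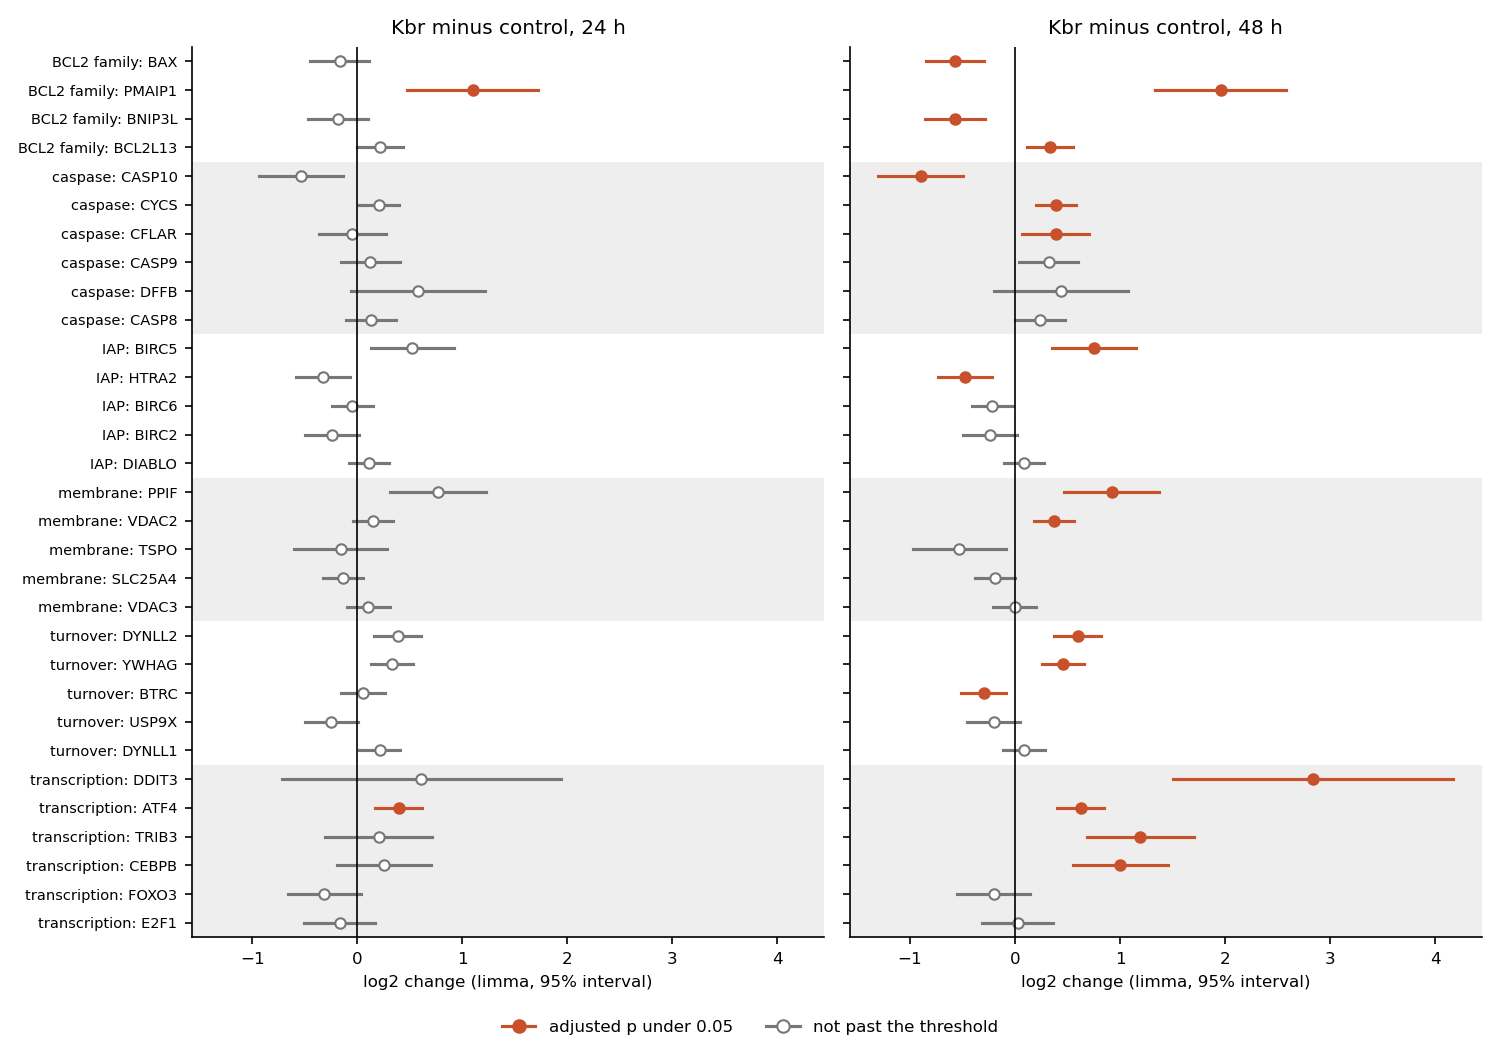
Log2 change of Kbr minus control (x axis) with its 95% limma interval for genes around the members (y axis, grouped by role), at 24 h and at 48 h; filled points passed the adjusted threshold. At 24 h the filled points are PMAIP1 and ATF4, and at 48 h the largest are DDIT3 and PMAIP1 on the higher side and CASP10 on the lower side.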

How the data were processed

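For each of 54675 probe sets on 12 Affymetrix arrays the authors deposited a log2 value, computed by GCRMA according to the submitters' processing notes. That method removes a background modelled on probe sequence, applies quantile normalization and combines the probes of a set. Weak probe sets are thereby drawn to a floor, and low values understate differences. The sources used here give neither its settings nor which arrays were normalized as a batch. Groups came from the labels, with 3 biological replicates each. Whether replicates were separate passages is not stated, so p-values measure the spread between these samples.

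A gene was represented by its probe set with the highest mean over the 12 arrays. The filter required a value over 4 on 3 or more arrays and kept 10665 of 19775 genes. A linear model of 4 group means was fitted with limma 3.58.1 (lmFit, eBayes) in R 4.3.3, with two-sided p-values adjusted by Benjamini-Hochberg over all genes, and a second fit did the same for 22368 probe sets. The fit was tested on simulated data whose arrays were independent, so that test does not bear on the pairing of replicate numbers. An exact test of 3 against 3 arrays cannot go below 0.1. Promoter sequences are RefSeq's (GRCh38.p14). The text names all 10 members, the genes with the smallest p of each list at 24 h and 48 h (up to 4 each), BAX, BBC3, PMAIP1 and DDIT3, and the 3 genes most like the 2 members with the smallest p at 48 h. The members and lists were chosen with earlier results of these data known.

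Deviations from group means correlated at 0.279 to 0.701 over 18 array pairs of the same replicate number and, for 36 pairs whose numbers differed, at -0.454 to -0.0613. By this check and the labels' numbering, the numbers pair the arrays. SEs and intervals come from the fit without a replicate block unless the block is named. The alternatives were this block, no filter, a floor of 6, repeated quantile normalization, median subtraction, averaging all probe sets of a gene, a fit restricted to the compared groups, a robust variance trend over intensity, array weights (statmod 1.5.0) and leaving out each array.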

Additional observations from a re-analysis of the deposited data

How the results depend on the processing

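The fall of MCL1 at 48 h, read from its brightest probe set, passed under every alternative tried. All of these but the averaging of probe sets refit that same probe set, so they do not bear on the others. Of 5 tested MCL1 probe sets, 1 passed at 48 h in the main fit, and the median log2 change over the 5 was -0.19. The rises of 3 BCL2L11 probe sets held in the alternatives that could be run. The replicate block raised the number of members past the threshold to 2 at 24 h (24.4% of all tested genes), where it was 0 without it. At 48 h it rose to 3 (57.5%), where it was 2. For the difference between times it rose to 1 (7.36%), for control cells over time to 3 (22.5%) and for Kbr cells over time to 6 (30.7%). It called 2 of 24 member probe sets at 24 h, beside 18.2% of all tested probe sets. Array weights gave 2 members and 1 probe set at 24 h, where 1388 of 10665 tested genes passed. They gave 4 members for Kbr cells over time, where 3317 of 10665 passed. Without a filter 1 member passed at 48 h, beside 3985 of 19775 genes. With only the groups compared 0 passed for Kbr cells over time, beside 224 of 10665. Leaving out each array in turn gave 1 to 2 members at 48 h, beside 3641 to 4491 of all 10665 tested genes. For Kbr cells over time it gave 0 to 3, beside 288 to 2206. When probe sets were averaged per gene, the change at 48 h turned to -0.18 for CFLAR and 0.28 for BTRC. Of 117 values for members, 22 gained or lost a call under at least 1 of 21 settings, and 57 that did not pass either way changed sign. Over all tested genes the block moved the count at 24 h to 2602, where it was 612, and array weights to 1388. Leaving out each array in turn gave 81 to 767 at 24 h, and it moved by over 1.5 times without any of the 3 Kbr arrays or the control arrays of replicates 1 and 2 at that time. At 48 h all settings gave 3564 to 6130, beside 4564. The difference between times had 15 genes, against 785 with the block, 308 with array weights, 32 without a filter, 9 with a floor of 6, 8 with array medians subtracted and 3 with averaged probe sets, and 0 to 479 without 1 array. Control cells over time had 351, against 2404 with the block, 185 without a filter, 9 with only the groups compared and 21 to 558 without 1 array. Kbr cells over time had 1135, against 3273, 726 and 224 under the same 3 settings, 3317 with array weights and 288 to 2206 without 1 array. The cause of these shifts was not tested. Precision is limited by 3 arrays a group, and 8 of the 32 probe sets, BMF's included, lay under the filter.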
